A study of Mus musculus with 12 samples.

Results

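The genes described here make, sense, move, store and export cholesterol. They are 32 genes named by symbol from general knowledge of the pathway and looked up in the expression table through NCBI Gene identifiers. The choice was made with earlier results of these data known. All 32 were found among the 30268 genes of the table, and all 32 were expressed highly enough to be tested. By role, 18 encode enzymes of the synthesis pathway, 4 regulate it (Insig1, Insig2, Scap, Srebf2), 4 control uptake or carry sterol inside the cell (Mylip, Stard4, Npc1, Npc2), 1 stores cholesterol as esters (Soat1), and 5 serve efflux (Abca1, Abcg1, Apoe) or encode the nuclear receptors that drive it (Nr1h2, Nr1h3).

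The study measured mRNA in gonadal white adipose tissue of male C57BL/6 mice. The mice were wild type (WT) or lacked the microRNA miR-10a (miR-10a KO, called KO here), and how the deletion was made is not given in the sources used here. Feeding with normal chow (NCD) or with a high-fat diet (HFD) began at the age of 8 weeks and lasted 16 weeks. The 4 groups, WT on NCD, KO on NCD, WT on HFD and KO on HFD, hold 3 libraries each. Libraries are named by group and the number in the table's header, such as KO_HFD 8. Values are FPKM, fragments per kilobase of transcript scaled to the number of mapped fragments, which correct for gene length but are relative within each library. The depth of the libraries is unknown, because the table gives FPKM and no counts.

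Cells make cholesterol from acetyl-CoA through the mevalonate pathway, first to squalene and then through a series of sterols. The transcription factor SREBP-2, encoded by Srebf2, switches these enzymes on when membranes of the endoplasmic reticulum hold little sterol. SCAP carries SREBP-2 to the Golgi for activation, and the INSIG proteins hold SCAP back when sterol is plentiful. Surplus cholesterol is esterified by the enzyme that Soat1 encodes or sensed as oxysterols by the liver X receptors (LXR), encoded by Nr1h3 and Nr1h2, which raise the exporters ABCA1 and ABCG1. Adipose tissue is a large store of free cholesterol held in the fat droplets of adipocytes, and the macrophages that gather in obese fat take up lipid and store cholesterol esters.

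The summed FPKM of a library ranged from 383633 to 455434, with 12859 to 13667 genes at 1 FPKM or more, and mitochondrial genes gave 14.6% to 17.5% of the sum on NCD, 9.24% to 13.1% in WT on HFD and 7.52% to 9.83% in KO on HFD. The diets did not overlap in that share, and its part in the diet changes was not tested. Adipocyte genes were abundant in all libraries, and Adipoq, the adipokine adiponectin, lay between 376 and 2517 FPKM. A list of 5 genes of steroid-making cells was low, at 1.46 to 2.96 FPKM in sum. Ciliated or duct epithelium transcripts summed to 89.1 to 139 FPKM over 8 genes in WT_NCD 2, WT_NCD 4 and KO_NCD 2, and to 30.7 to 49.99 in the other libraries.

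On HFD, WT fat held more mRNA for most of the synthesis pathway, for Soat1 and for Abcg1, and less for Apoe, Fdft1 and Insig2. This is the comparison of diets in mice with an intact miR-10a gene. Of the 32 genes, 20 rose, 3 fell and 9 did not pass the threshold, an adjusted p of 0.05 in limma on log2(FPKM + 1) with Benjamini-Hochberg adjustment over 14340 genes. Diet changed 50.8% of all tested genes in WT, 25.4% upward and 25.3% downward, so a changed gene was common. The median log2 change of the 32 genes was 0.49, and that of all tested genes was -0.03. Diets without overlap were also common. In WT all HFD libraries lay above all NCD libraries for 21 of the 32 genes and below for 6, against 31.3% and 33.3% of all tested genes. In KO these were 19 and 5 of the 32 genes, against 36.2% and 30.5%. Without the 3 libraries with epithelial transcripts, 16 rose and 3 fell.

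**Figure D1:**
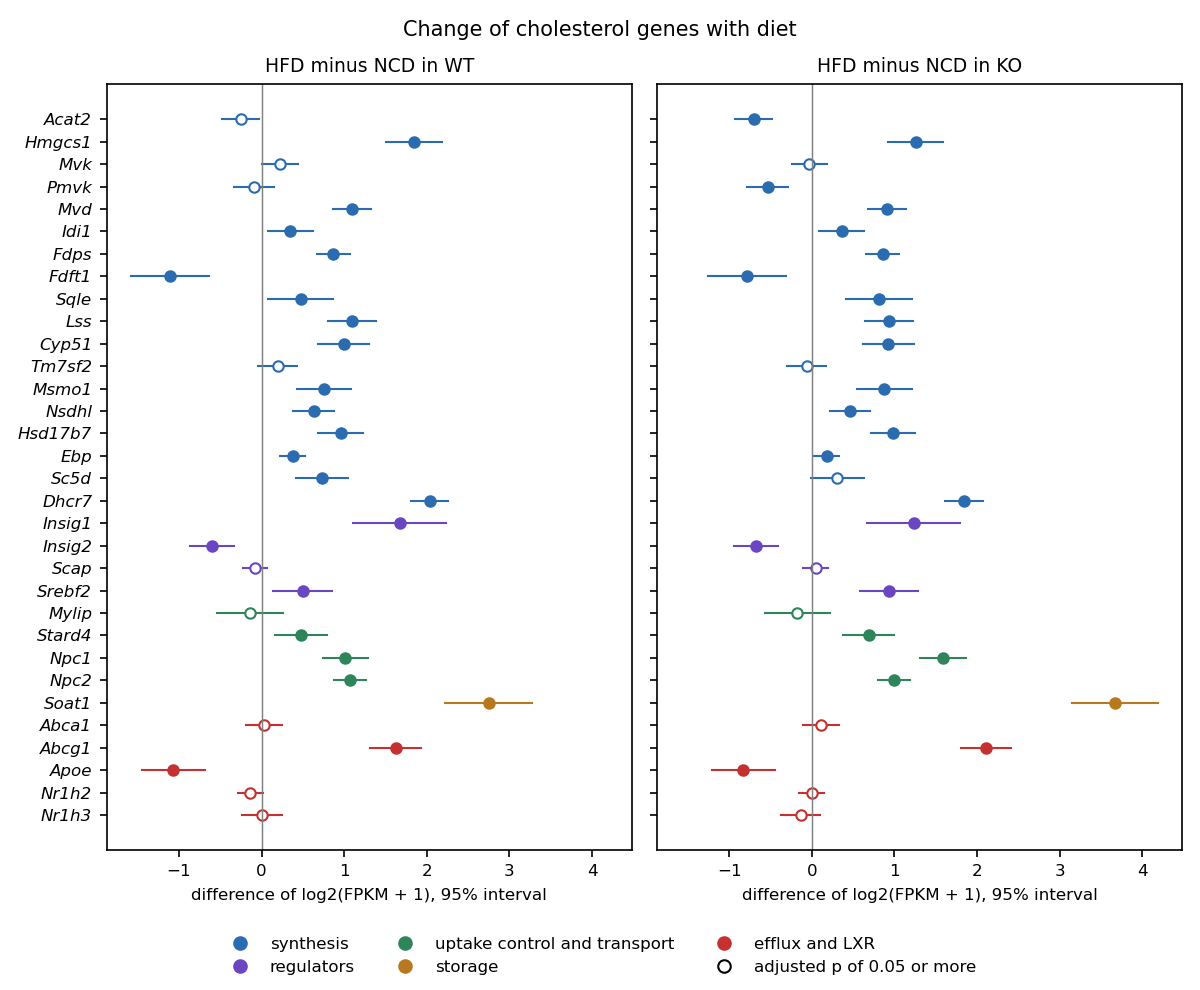
Difference of log2(FPKM + 1) between HFD and NCD for the 32 cholesterol genes, in WT (left) and KO (right), with 95% intervals from limma and 3 libraries in each group. Filled points passed an adjusted p of 0.05, open points did not. Soat1 lies farthest to the right in both panels, at 2.75 and 3.67, while Fdft1, Insig2 and Apoe lie left of 0 in both.

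Among the 18 synthesis enzymes, 13 rose on HFD in WT, 1 fell and 4 did not pass the threshold, with a median log2 change of 0.68, or 0.49 without the 3 libraries with epithelial transcripts. Hmgcs1 (NCBI gene 208715, mm10 chromosome 13, 119690351 to 119708260) encodes the enzyme that makes HMG-CoA, the substrate of the pathway's committed step, and had the highest mean of the 18 over all 12 libraries. Its level on NCD was 51.3, 45.4 and 32.5 FPKM in WT and 44.9, 44.8 and 52.9 in KO. Under HFD the values were 169.8, 154 and 141 FPKM in WT and 116, 127 and 102 in KO. All 6 HFD libraries lay above all 6 NCD libraries, and the 3 KO libraries on HFD lay below the 3 WT ones. The WT diet effect was a log2 change of 1.84 (95% interval 1.51 to 2.18, adjusted p = 5.97e-06, limma), or 3.60 times as a ratio of mean FPKM.

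Dhcr7 (gene 13360, chromosome 7, 143823167 to 143848410) encodes the reductase that makes cholesterol from 7-dehydrocholesterol, the last reaction of one branch of the pathway, and had the highest log2 change among the enzymes. Its level on NCD was 4.90, 4.91 and 3.91 FPKM in WT and 4.19, 3.80 and 5.05 in KO. On HFD it was 19.6, 22.7 and 23.0 FPKM in WT and 18.2, 17.6 and 18.5 in KO. No HFD library overlapped the NCD range. The log2 change was 2.03 in WT (interval 1.81 to 2.26, adjusted p = 3.63e-07, limma) and 1.84 in KO (1.62 to 2.07, adjusted p = 2.05e-07).

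The other enzymes that rose in WT did so by less than these. Mvd, which completes the formation of isopentenyl diphosphate, had a log2 change of 1.09 in WT, as did Lss, the synthase that closes squalene epoxide into lanosterol. Cyp51, which removes a methyl group from lanosterol, rose by 0.99, and Hsd17b7 and Fdps, the latter making farnesyl diphosphate, rose by 0.96 and 0.86. Msmo1 rose by 0.76, Sc5d by 0.73, Nsdhl by 0.63 and Ebp by 0.37. These 4 act on the sterol ring or its methyl groups. The calls nearest the threshold in WT were Sqle at 0.47 (adjusted p = 0.0485), the enzyme that oxidises squalene, and Idi1 at 0.35 (adjusted p = 0.0372), which isomerises isopentenyl diphosphate.

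Both of those calls depended on single libraries and on how the libraries were scaled. Under quantile normalization and median centring the adjusted p in limma was 0.0556 and 0.0569 for Sqle and 0.0735 and 0.0675 for Idi1. The Sqle call in WT was lost on leaving out any 1 of WT_NCD 1, 2 or 4, KO_NCD 2, 3 or 4, or WT_HFD 2 or 4. The adjusted p then reached 0.174 without WT_HFD 4, the WT library with the highest Sqle, and the log2 change was 0.34. The Idi1 call was lost without WT_NCD 4 (adjusted p = 0.144), WT_HFD 1 (0.0565), WT_HFD 4 (0.137) or KO_HFD 3 (0.0514), with log2 changes of 0.22 to 0.38. Without the 3 libraries with epithelial transcripts, which leaves 1 WT_NCD library, Sqle stood at 0.52 (adjusted p = 0.207), Idi1 at 0.21 (0.248) and Msmo1 at 0.72 (0.0522).

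Fdft1 (gene 14137, chromosome 14, 63145150 to 63181687), which encodes squalene synthase, was the 1 enzyme that fell in WT. Its level on NCD was 15.7, 15.01 and 16.8 FPKM in WT and 9.01, 17.1 and 13.9 in KO. With HFD it stood at 5.77, 9.09 and 5.85 FPKM in WT and 8.47, 6.16 and 6.75 in KO. The lowest NCD library, KO_NCD 2, lay just below the highest HFD library, WT_HFD 2, while within each genotype the diets did not overlap. Its log2 change was -1.11 in WT (interval -1.58 to -0.64, adjusted p = 0.00145, limma) and -0.79 in KO (-1.26 to -0.32, adjusted p = 0.00793). Fdft1 overlaps Ctsb, the lysosomal protease cathepsin B, by 774 bases on the opposite strand in GENCODE M21. Ctsb went from 293 ± 28.8 FPKM (SD, n = 3) to 882 ± 97.6 in WT and from 296 ± 12.7 to 1134 ± 142 in KO. The kit was a stranded one, but whether the counting used strand is not given in the sources used here, and the part of the overlap in the Fdft1 values was not tested.

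The 4 enzymes that did not pass in WT were Acat2, the thiolase that makes acetoacetyl-CoA, at -0.26 (adjusted p = 0.0566), Mvk at 0.23 (0.0774), Tm7sf2 at 0.20 (0.148) and Pmvk at -0.09 (0.52). Mvk and Pmvk encode the kinases that phosphorylate mevalonate and phosphomevalonate, and Tm7sf2 a sterol reductase. The Acat2 fall passed on leaving out WT_NCD 1 (adjusted p = 0.0498), KO_NCD 3 (0.0225) or KO_NCD 4 (0.0386), and that of Mvk, upward, without KO_HFD 8 (0.0268).

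**Figure D2:**
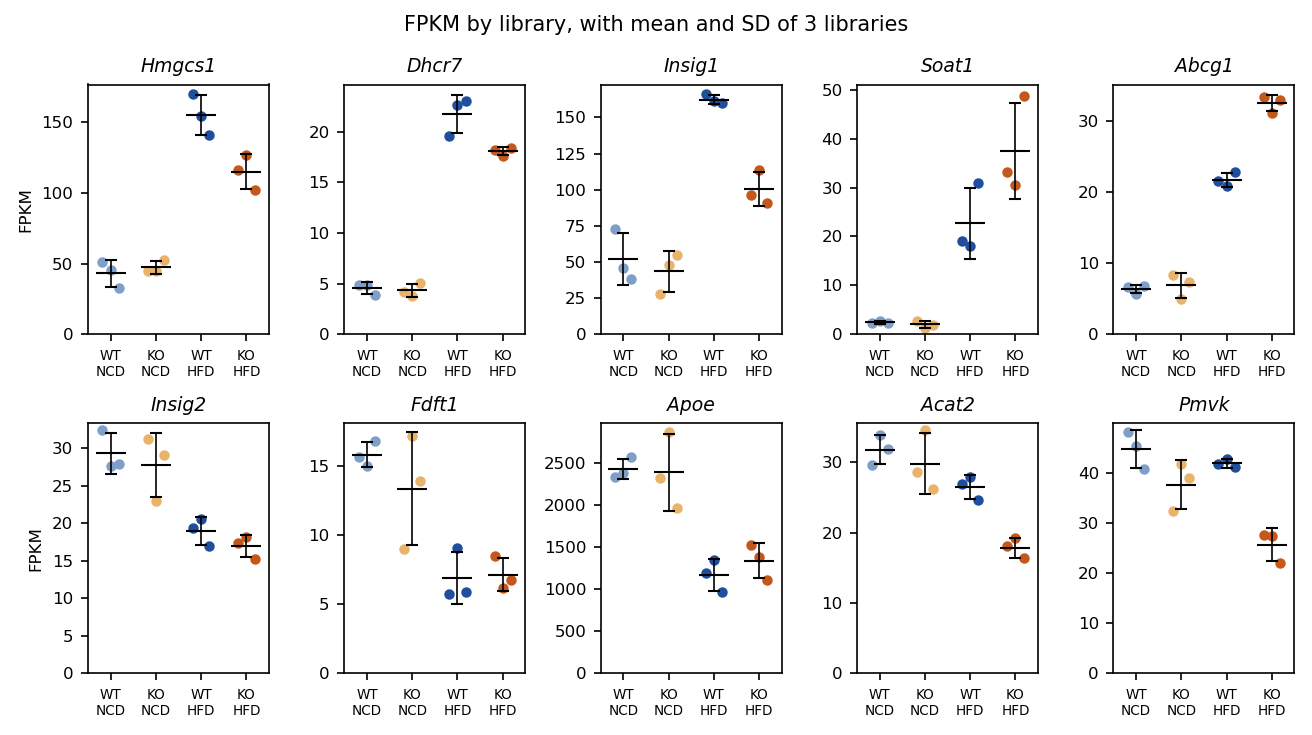
FPKM of 10 cholesterol genes in each of the 12 libraries (points), with the mean and SD of the 3 libraries of a group (bars), on a linear axis from 0. Hmgcs1, Dhcr7, Insig1, Soat1 and Abcg1 are higher in every HFD library than in any NCD library, and the KO libraries on HFD lie below the WT ones for Hmgcs1, Dhcr7, Insig1, Acat2 and Pmvk and above them for Abcg1. Of all tested genes, 31.3% in WT and 36.2% in KO are higher in every HFD library than in any NCD library of that genotype. On HFD all KO libraries lie below all WT ones for 11.7% of all tested genes and above them for 19%.

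In KO fat, HFD raised 19 of the 32 genes and lowered 5, with 8 not past the threshold, where 60.9% of all tested genes changed, 34.6% upward and 26.2% downward. Centring each library on its median reversed the balance of all genes, from 56.9% of called genes higher to 42.4%, and quantile normalization gave 45.3%. The median of all genes moved from 0.04 to -0.11 with centring and -0.07 with quantiles. The median of the 32 genes was 0.57 as fitted and 0.43 or 0.44 under those scalings. Of the synthesis enzymes 12 rose, 3 fell and 3 did not pass. Acat2 fell by 0.70 on the log2 scale (adjusted p = 0.000146), Pmvk by 0.54 (adjusted p = 0.00161), and Fdft1 as given above. Without the 3 libraries with epithelial transcripts 17 of the 32 genes rose and 5 fell.

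Hmgcs1 rose by 1.26 in KO, Hsd17b7 by 0.98, Lss and Cyp51 by 0.93, Mvd by 0.91, Msmo1 by 0.88, Fdps by 0.86, Sqle by 0.82 and Nsdhl by 0.46. Idi1 rose by 0.36 (adjusted p = 0.0263) and lost its call without KO_NCD 2 (0.102), KO_HFD 3 (0.0592) or KO_HFD 8 (0.0871), and stood at 0.26 (0.0531) without the 3 libraries with epithelial transcripts. Under either scaling Idi1 stood at 0.21 and lost its call, with an adjusted p in limma of 0.167 with quantiles and 0.175 with centring. Ebp rose by 0.18 (adjusted p = 0.0456), and this call was lost in 17 of 21 alternatives, on leaving out any library but KO_NCD 3, with a change of 0.11 without KO_NCD 4 and 0.03 under either scaling. Sc5d, at 0.31 (adjusted p = 0.0838), passed without KO_NCD 4 (0.0364).

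The 3 genes with the largest WT diet change among enzymes and regulators with a searched motif are shown with the 250 bases before their start site, from RefSeq on GRCm38.p6. SREBP-2 binds sterol regulatory elements and often acts beside the factor NF-Y, which binds CCAAT boxes. Capitals mark TCACNCCAC, a core of the sterol regulatory element, and CCAAT, on either strand, so that ATTGG is CCAAT read on the other strand. The Dhcr7 window, chr7:143829964-143830213 on the plus strand, belongs to the last of 3 annotated start sites of that gene, and neither motif was found at the other two. The Hmgcs1 window is chr13:119690101-119690350 and the Insig1 window chr5:28071162-28071411, both on the plus strand.
Dhcr7: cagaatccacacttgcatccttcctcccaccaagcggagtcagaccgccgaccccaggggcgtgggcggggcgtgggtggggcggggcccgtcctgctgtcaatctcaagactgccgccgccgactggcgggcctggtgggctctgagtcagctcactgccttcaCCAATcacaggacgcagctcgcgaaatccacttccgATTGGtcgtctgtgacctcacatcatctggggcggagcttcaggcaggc
Hmgcs1: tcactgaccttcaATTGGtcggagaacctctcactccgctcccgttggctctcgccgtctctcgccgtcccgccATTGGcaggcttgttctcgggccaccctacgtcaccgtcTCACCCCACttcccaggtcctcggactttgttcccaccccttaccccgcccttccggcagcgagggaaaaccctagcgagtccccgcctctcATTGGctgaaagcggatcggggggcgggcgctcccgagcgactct
Insig1: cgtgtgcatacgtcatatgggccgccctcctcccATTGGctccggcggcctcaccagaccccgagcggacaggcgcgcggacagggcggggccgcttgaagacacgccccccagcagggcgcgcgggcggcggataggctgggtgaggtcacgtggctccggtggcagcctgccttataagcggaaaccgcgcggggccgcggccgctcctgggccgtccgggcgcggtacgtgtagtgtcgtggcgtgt

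A promoter of 300 bases, 250 before the start and 50 after it, was searched for 26 of the 32 genes. Those not searched were Fdps, Fdft1, Sqle, Stard4, Npc1 and Abcg1. TCACNCCAC was found in 1, Hmgcs1, starting 137 bases before the start site, against 1.44% of the 27025 genes in the promoter table. CCAAT was found in 14 of 15 synthesis genes, 3 of 4 regulators, both of the searched transport genes and Soat1, and in 0 of 4 efflux and LXR genes, against 41.1% of all genes. An exact LXR element, AGGTCA repeated after a gap of 4 bases, was in none of the 26 and in 0.0148% of all genes. These counts are descriptions of letters in this window. They say nothing on whether a factor was bound.

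Of the 4 regulators, Insig1 and Srebf2 rose in both genotypes, Insig2 fell in both, and Scap did not pass in either. Insig1 (gene 231070, chromosome 5, 28071412 to 28078662), itself a target of SREBP in other settings, was at 72.7, 45.7 and 38.3 FPKM in WT and 27.8, 48.1 and 54.7 in KO on NCD. On HFD it was at 166, 162 and 159.7 FPKM in WT and 96.2, 114 and 91.1 in KO. The HFD libraries lay above all NCD libraries, and the KO libraries on HFD lay between. The log2 change was 1.67 in WT (interval 1.11 to 2.23, adjusted p = 0.000335, limma) and 1.23 in KO (0.67 to 1.80, adjusted p = 0.00162).

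Insig2 (gene 72999, chromosome 1, 121304353 to 121332662), the other INSIG gene, moved the other way. It was at 32.5, 27.6 and 27.9 FPKM in WT and 31.2, 23.0 and 29.1 in KO on NCD, and at 19.4, 20.6 and 17.0 in WT and 17.4, 18.1 and 15.3 in KO on HFD. All HFD libraries lay below all NCD libraries. Its log2 change was -0.60 in WT (adjusted p = 0.00177, limma) and -0.67 in KO (adjusted p = 0.000571). Srebf2 rose by 0.50 in WT (adjusted p = 0.0241) and 0.93 in KO (adjusted p = 0.000473), and the WT call was lost without WT_NCD 4 (0.0865), WT_HFD 4 (0.1) or the 3 libraries with epithelial transcripts (0.212). Scap was at 9.89 to 11.8 FPKM in all libraries, with changes of -0.08 in WT (interval -0.23 to 0.07) and 0.04 in KO (-0.10 to 0.19).

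Sterol transport genes were higher on HFD, and the uptake regulator was not detectably so. Npc1 and Npc2 encode the membrane and the soluble protein that pass cholesterol out of the lysosome. Npc2 (gene 67963, chromosome 12, 84754559 to 84773112) was at 159.9, 129 and 145 FPKM in WT and 154, 148 and 136 in KO on NCD, and at 315, 295 and 304 in WT and 309, 294 and 272 in KO on HFD. The diets did not overlap, and the genotypes did on both diets. The log2 change was 1.07 in WT (adjusted p = 5.84e-06, limma) and 0.99 in KO (adjusted p = 4.37e-06).

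Npc1 rose by 1.01 in WT (adjusted p = 7.83e-05) and by 1.58 in KO (adjusted p = 1.88e-06). Its gene overlaps Rmc1 by 967 bases on the opposite strand, and Rmc1 was at 14.1 to 16.5 FPKM on NCD and 18.5 to 21.7 on HFD. Stard4, a soluble sterol carrier, rose by 0.48 in WT (adjusted p = 0.0169) and 0.69 in KO (adjusted p = 0.00165), and the WT call was lost without WT_NCD 1 (0.0571), WT_NCD 4 (0.0605) or WT_HFD 4 (0.0726). Mylip, a ubiquitin ligase induced by LXR that marks lipoprotein receptors for degradation, did not pass, at -0.14 in WT (interval -0.54 to 0.26) and -0.17 in KO (-0.57 to 0.22).

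Soat1 (gene 20652, chromosome 1, 156428108 to 156474328), which encodes the enzyme that esterifies cholesterol in macrophages and most other cells, had the highest diet change of the 32 genes. It was at 2.21, 2.69 and 2.39 FPKM in WT and 2.82, 1.32 and 1.94 in KO on NCD. HFD libraries stood at 19.1, 18.0 and 31.0 FPKM in WT and 33.1, 30.6 and 48.7 in KO. The diets were far apart, WT_HFD 4 lay above KO_HFD 5, and KO_HFD 8 was the highest library. Its log2 change was 2.75 in WT (interval 2.22 to 3.27, adjusted p = 7.53e-06, limma) and 3.67 in KO (3.14 to 4.19, adjusted p = 4.97e-07). As ratios of mean FPKM these were 9.32 and 18.5 times, larger than on the log2(FPKM + 1) scale because the NCD levels were near 2 FPKM.

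The efflux and LXR genes did not move together. Abcg1 (gene 11307, chromosome 17, 31057694 to 31117984), an exporter of cholesterol to high-density lipoprotein that is abundant in macrophages, was at 6.69, 5.72 and 6.75 FPKM in WT and 8.34, 4.93 and 7.39 in KO on NCD. On HFD it was at 21.5, 20.8 and 22.7 FPKM in WT and 33.3, 31.1 and 32.9 in KO, so the genotypes did not overlap on this diet. All KO libraries on HFD lay above all WT ones for 19% of all tested genes. The log2 change of Abcg1 with diet was 1.62 in WT (adjusted p = 6.85e-06, limma) and 2.11 in KO (adjusted p = 5.41e-07). Abca1, the exporter that loads apolipoprotein A-I, was at 25.1 to 32.0 FPKM on NCD and 27.5 to 34.3 on HFD. Its log2 change was 0.03 in WT (interval -0.19 to 0.24) and 0.11 in KO (-0.10 to 0.33), and neither passed.

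Nr1h3 and Nr1h2, the LXR genes, did not pass in either genotype. Nr1h3, the form that adipose tissue and macrophages are known for, was at 32.4 to 48.6 FPKM over all libraries, with changes of 0.01 in WT (interval -0.23 to 0.25) and -0.14 in KO (-0.38 to 0.10). Nr1h2, the ubiquitous form, changed by -0.14 in WT (adjusted p = 0.114), and this fall passed under quantile normalization (0.0243) and median centring (0.0405). In KO it was at -0.00 (interval -0.15 to 0.15).

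Apoe (gene 11816, chromosome 7, 19696244 to 19701310), the apolipoprotein that accepts cholesterol from macrophages and that adipocytes also make, was the most abundant of the 32 genes. It was at 2331, 2379 and 2565 FPKM in WT and 2318, 2868 and 1967 in KO on NCD. Under HFD it was at 1186, 1343 and 965 FPKM in WT and 1521, 1383 and 1111 in KO, with every HFD library below every NCD library. The log2 change was -1.07 in WT (interval -1.45 to -0.69, adjusted p = 0.000495, limma) and -0.83 in KO (-1.21 to -0.44, adjusted p = 0.00176). Liver makes Apoe as well, and 3 liver transcripts (Alb, Apoa1, Ttr) summed to 29.8 to 774 FPKM on NCD and 0.677 to 142 on HFD. The part of liver transcripts in the Apoe values was not tested.

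Set side by side, 15 of the 22 synthesis and regulator genes rose in WT and 2 fell, with a median log2 change of 0.56. Of the 6 storage, efflux and LXR genes 2 rose, Soat1 and Abcg1, 1 fell, Apoe, and 3 did not pass, with a median of 0.02. In KO, 14 of 22 rose and 4 fell, with a median of 0.64, and again 2 of 6 rose and 1 fell, with a median of 0.05. Of all tested genes, 25.4% rose and 25.3% fell in WT, and 34.6% rose and 26.2% fell in KO. The counts among the 6 genes lay near those shares. Whether the pair of sets differed was not tested.

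Cell types moved with diet beside these genes, and in bulk tissue fewer cells of a type and less RNA per cell cannot be told apart. All 12 macrophage markers rose on HFD in both genotypes, with median log2 changes of 2.05 in WT and 2.78 in KO. Their sum was 601 to 779 FPKM in WT and 496 to 652 in KO on NCD, and 2912 to 3827 in WT and 4215 to 5665 in KO on HFD. Of 10 markers of lipid-associated macrophages, 9 rose in each genotype. The remaining 1 did not pass in WT, at -0.35, and was called lower in KO, at -0.48. Of 9 adipocyte markers, 6 fell in WT and 8 in KO, and their sum was 19271 to 23511 FPKM on NCD, 11422 to 14828 in WT on HFD and 6460 to 11320 in KO on HFD. The synthesis enzymes summed to 283 to 337 FPKM in WT and 259 to 303 in KO on NCD, and to 526 to 545 in WT and 401 to 416 in KO on HFD. Of 5 fibroblast markers, 3 rose in WT (median 0.61) and 5 in KO (1.46). Of 5 mesothelial markers, 5 fell in WT (median -1.37) and 0 passed in KO (-0.24), while the difference between these effects passed for 0 of 5. Of 8 markers of ciliated or duct epithelium, 3 fell in WT and 0 passed in KO, and none of 4 endothelial or 3 liver markers passed in either genotype. The part of these cell types in the changes of the cholesterol genes was not tested.

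**Figure D3:**
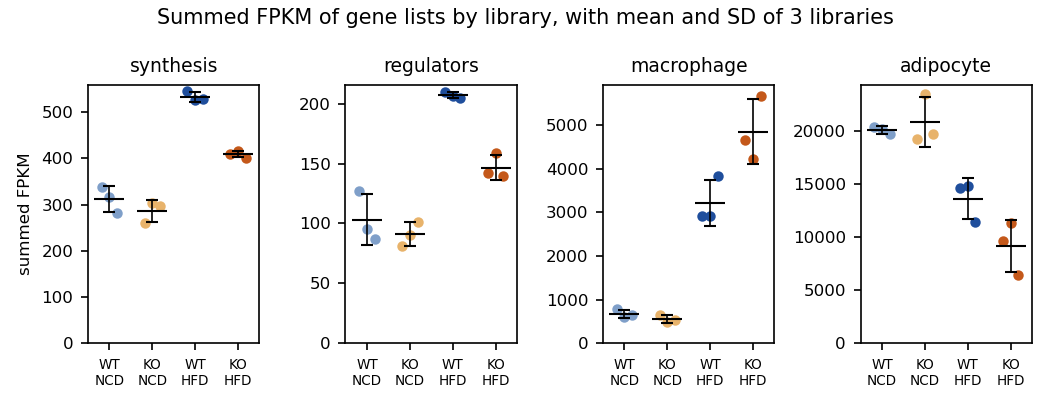
Summed FPKM of the 18 synthesis enzymes, the 4 regulators, 12 macrophage markers and 9 adipocyte markers in each of the 12 libraries (points), with the mean and SD of 3 libraries (bars), on linear axes from 0. On HFD the sums of synthesis enzymes, regulators and adipocyte markers are lower in KO than in WT and the macrophage sum is higher. The genotypes do not overlap for any of the 4 sums. For adipocyte markers the gap is narrow, with a lowest WT sum of 11422 FPKM and a highest KO sum of 11320. Among single genes, 19% of all tested were higher and 11.7% lower in KO without overlap on HFD. The regulator sum is mostly Insig1, with means of 162 of 207 FPKM in WT and 100 of 147 in KO on HFD. Srebf2 had a higher mean in KO, at 18.1 FPKM against 14.7 in WT.

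Other genes of the pathway were taken as 5 lists of 52 genes, of which 48 were tested. In WT 18 rose on HFD, 11 fell and 19 did not pass, and in KO 24 rose, 11 fell and 13 did not pass, beside 25.4% upward and 25.3% downward of all tested genes in WT and 34.6% and 26.2% in KO. Lipa and Nceh1 had the highest log2 changes of the 48. Lipa, the lysosomal acid lipase, rose by 3.06 in WT and 3.75 in KO, and Nceh1, a hydrolase of cholesterol esters in macrophages, by 3.04 and 4.01. Lipe, counted here as an adipocyte marker, encodes hormone-sensitive lipase, which also splits cholesterol esters, and fell by 1.27 and 1.85 on the log2 scale. Of 11 tested genes of lysosomal and intracellular transport, Lipa among them, 6 rose and 2 fell in WT and 7 rose and 2 fell in KO. Of 7 uptake receptors and adaptors, 5 rose in WT and 6 in KO, led in WT by the scavenger receptors Msr1, at 2.49 and 3.15, and Olr1, at 1.39 and 1.32. Olr1 was at 0.0597 to 0.210 FPKM on NCD and 1.51 to 2.31 on HFD. It met the filter of 1 FPKM in 3 libraries only through HFD, so its rise was partly set by the filter. At such low values the added 1 FPKM also sets the size of its change.

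Of 7 tested partners of the enzymes, 1 rose and 2 fell in each genotype. Por, the reductase that supplies electrons to the products of Cyp51 and Sqle, fell by 1.36 in WT and 1.37 in KO on the log2 scale, and Aacs, which makes acetoacetyl-CoA in the cytosol, fell by 1.48 and 1.77. Of 8 genes of SREBP processing, 0 rose and 2 fell in WT, and 3 rose and 2 fell in KO. Srebf1, which encodes the SREBP that drives fatty acid synthesis, fell by 0.62 in WT (adjusted p = 0.0208) and 0.97 in KO, the opposite direction to Srebf2. Of 15 tested LXR partners, targets and oxysterol genes, 6 rose and 5 fell in WT and 7 rose and 5 fell in KO. Pltp, the phospholipid transfer protein, rose by 2.04 and 2.74, while Apoc1 fell by 1.39 and 2.05 and Scd1, a desaturase that LXR and SREBP-1 both induce, by 1.10 and 1.95.

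On NCD no difference between KO and WT passed for any of the 32 genes, and limma called 7 of all tested genes, or 0.0488%. At an unadjusted p under 0.05, 3 of the 32 genes were lower in KO, all of them enzymes, as were 4.36% of all tested genes, and the lowest adjusted p was 0.37 for Fdps, at -0.36. The widest intervals were those of Insig1 (-0.82 to 0.30) and Soat1 (-0.73 to 0.31).

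On HFD, KO fat held less mRNA for 2 synthesis enzymes, Pmvk and Acat2, and the other 30 genes did not pass. Limma called 0.802% of all tested genes, and 0.202% of all tested genes as lower in KO. Pmvk (gene 68603, chromosome 3, 89454541 to 89469014) was at 41.8, 42.8 and 41.0 FPKM in WT and 27.6, 27.4 and 21.9 in KO on HFD, and at 48.2, 45.2 and 40.7 in WT and 32.3, 41.8 and 38.9 in KO on NCD. The genotypes were apart on HFD and overlapped on NCD. The log2 difference of KO from WT on HFD was -0.69 (interval -0.94 to -0.45, adjusted p = 0.0235), or 0.61 times as a ratio of means. Acat2 (gene 110460, chromosome 17, 12943042 to 12960725) was at 26.9, 27.9 and 24.6 FPKM in WT and 18.1, 19.2 and 16.3 in KO on HFD, and at 29.7, 33.9 and 31.9 in WT and 28.7, 34.6 and 26.2 in KO on NCD. All 3 KO libraries on HFD lay below all others, and the difference was -0.54 (interval -0.77 to -0.32, adjusted p = 0.0422).

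Both calls were near the threshold. That of Pmvk was lost without WT_HFD 1 (adjusted p = 0.124), WT_HFD 2 (0.119), KO_HFD 3 (0.0625) or KO_HFD 8 (0.0793), and that of Acat2 on leaving out any of 8 single libraries (0.0501 to 0.198), namely WT_NCD 1, 2 or 4, KO_NCD 2, WT_HFD 1 or 2, or KO_HFD 3 or 8. Without the 3 libraries with epithelial transcripts the adjusted p was 0.0522 for Pmvk and 0.107 for Acat2. The log2 differences stayed between -0.75 and -0.59 for Pmvk and between -0.59 and -0.48 for Acat2 in all alternatives tried.

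**Figure D4:**
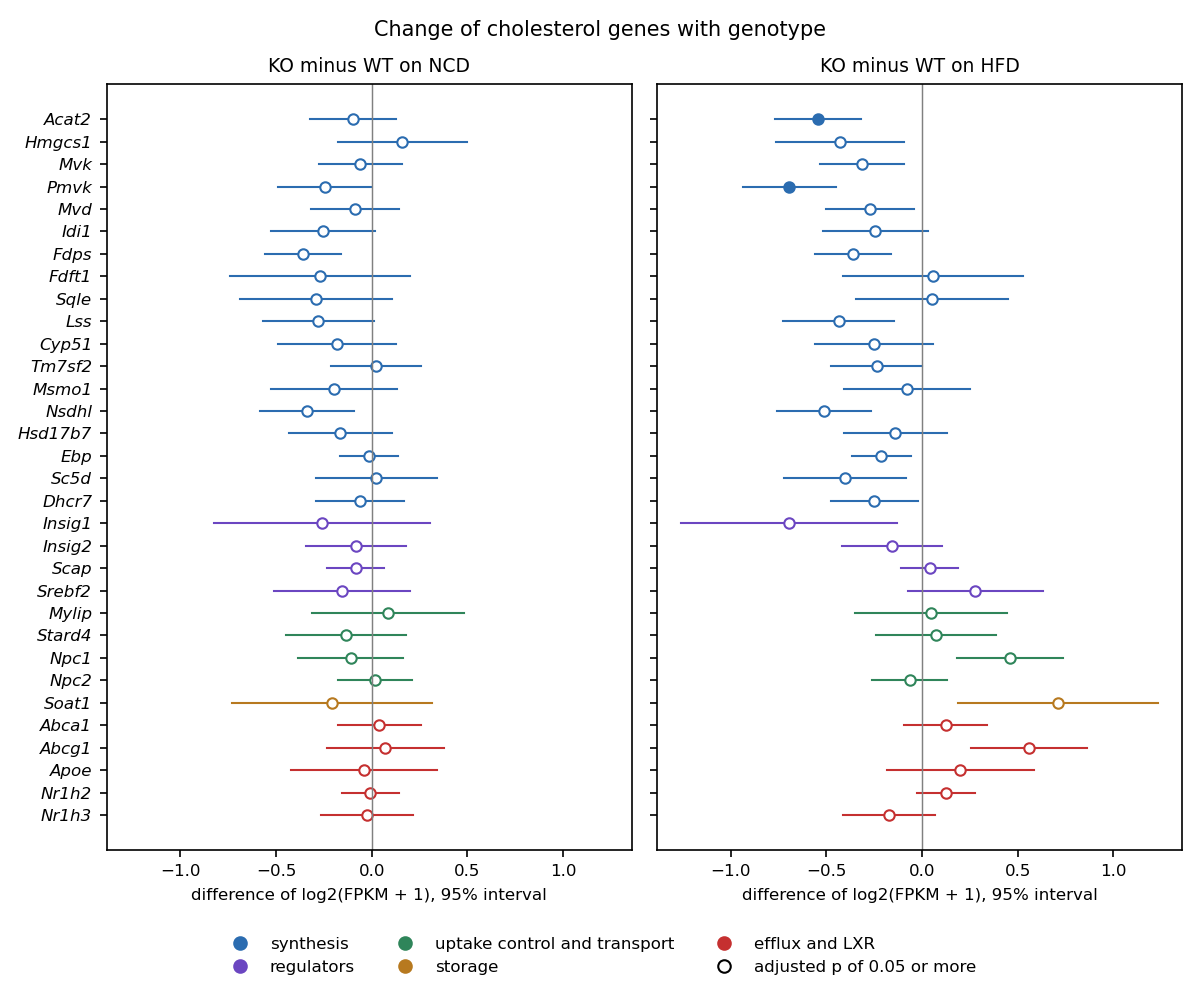
Difference of log2(FPKM + 1) between KO and WT for the 32 cholesterol genes, on NCD (left) and HFD (right), with 95% intervals from limma and 3 libraries in each group. Filled points passed an adjusted p of 0.05, which on HFD are Acat2 and Pmvk and on NCD none.

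The other enzymes lay mostly below WT on HFD without passing. Of the 18, 16 had a negative difference, with a median of -0.26 against 0.03 for all tested genes. In limma 11 had an unadjusted p under 0.05. Of all tested genes 24.3% had one in either direction, and 9.6% had one as lower in KO. In 13 of the 18 all KO libraries lay below all WT libraries, as they did for 11.7% of all tested genes. The nearest to the threshold were Nsdhl, at -0.51 (adjusted p = 0.0589), and Fdps, at -0.36 (adjusted p = 0.069). Nsdhl passed without WT_HFD 4 (0.0317), and also under quantile normalization (0.0497), median centring (0.0487) and a filter of 5 FPKM on the mean (0.0491). Hmgcs1 stood at -0.43 (interval -0.76 to -0.09, adjusted p = 0.131), Dhcr7 at -0.25 (-0.48 to -0.02, 0.173) and Insig1 at -0.70 (-1.26 to -0.13, 0.138). Sqle and Fdft1 were at 0.05 and 0.06. The 4 regulators did not move together, and none passed. Insig1 and Insig2 were lower in KO, and 2 had a positive difference, Srebf2 and Scap. On HFD Srebf2 was at 14.7 ± 2.76 FPKM (SD, n = 3) in WT and 18.1 ± 3.46 in KO, and Scap at 10.9 ± 0.549 and 11.2 ± 0.428.

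Among the transport, storage and efflux genes, 3 stood above WT with intervals clear of 0. Such an interval is an unadjusted p under 0.05 in limma. Of all tested genes 24.3% had one in either direction, and 9.6% had one as lower in KO. Abcg1 stood at 0.56 in KO against WT on HFD (interval 0.26 to 0.86, adjusted p = 0.0666), Npc1 at 0.46 (0.18 to 0.74, 0.0796) and Soat1 at 0.71 (0.19 to 1.23, 0.113). None passed with all libraries. Without WT_HFD 4, Npc1 passed at 0.58 (adjusted p = 0.0314) and Soat1 at 0.95 (0.0385), and without KO_NCD 3, Abcg1 passed (0.015). Leaving out WT_HFD 4 raised the genes called higher in KO from 86 to 695 over all tested genes. Abca1 stood at 0.12 (interval -0.09 to 0.34), Apoe at 0.20 (-0.18 to 0.58) and Nr1h3 at -0.17 (-0.41 to 0.07).

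Most cell type markers did not pass for KO against WT on HFD, where 0.802% of all tested genes were called. The macrophage markers had a median difference of 0.50, with 1 of 12 (Fcgr1) past the threshold, and the adipocyte markers one of -0.59, with 0 of 9 past it. Lipid-associated macrophage markers had a median of 0.71, with 2 of 10 (Itgax and Ctsk) past the threshold, and fibroblast markers one of 0.43, with 1 of 5 (Pdgfra) past it. Mesothelial markers had a median of 0.78 and endothelial markers one of -0.48, with 0 of 5 and 0 of 4 past the threshold. For ciliated or duct epithelium the median was -0.01 and for liver -1.125, with 0 of 8 and 0 of 3 past it. The part of these cell types in the genotype differences of the cholesterol genes, most of which did not pass, was not tested.

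The difference between the diet effects of the genotypes, the interaction term, passed for none of the 32 genes in limma and for 0.272% of all tested genes. At an unadjusted p under 0.05 there were 6 of the 32 genes, against 18.5% of all tested genes. The count of 6 lay near that share. The estimates were positive, toward a larger log2 rise in KO, for Npc1 (0.57), Soat1 (0.92) and Abcg1 (0.49). They were negative for Hmgcs1 (-0.59), Acat2 (-0.45) and Pmvk (-0.45), toward a smaller rise or a larger fall. The lowest adjusted p was 0.164, for Npc1.

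The study removed miR-10a, so its seed was looked for in these genes. A microRNA lowers mRNAs whose 3′ untranslated region (3′ UTR) pairs with its seed, bases 2 to 8. The mature miR-10a-5p of RefSeq on GRCm38.p6, chr11:96317186-96317208 on the plus strand, is shown with its seed in capitals.
miR-10a-5p: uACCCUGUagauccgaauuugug

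The matching letters, ACAGGGT, were found in the longest annotated 3′ UTR (GENCODE M21) of 4 of the 30 genes searched, against 12.1% of 21685 genes. The windows of 30 bases around the first match show the match in capitals. Only the Abcg1 match is followed by an A, which makes it an 8mer, and the other 3 are of the 7mer-m8 type.
Abcg1: ccaggctggtgcaggACAGGGTatcctggg
Abca1: aagaatcccgttcacACAGGGTgaatgaaa
Dhcr7: tggctaacttgataaACAGGGTtcccagga
Sc5d: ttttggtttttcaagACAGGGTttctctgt

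For none of the 4 did the difference between KO and WT pass in limma on either diet. On NCD the log2 differences were 0.07 for Abcg1 (interval -0.23 to 0.38), 0.04 for Abca1 (-0.18 to 0.26), -0.06 for Dhcr7 (-0.29 to 0.17) and 0.02 for Sc5d (-0.29 to 0.34). On HFD they were 0.56, 0.12, -0.25 and -0.40 in the same order, with the intervals of Abcg1, Abca1 and Dhcr7 given above and -0.72 to -0.09 for Sc5d. A match is a description of the letters and not evidence of binding.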

How the data were processed

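Polyadenylated RNA of 12 samples was sequenced from libraries made with a stranded TruSeq kit, per the labels' protocols. The authors deposited 1 table of FPKM per gene and library. Per the submitters' processing notes the tools were HISAT2 2.1.0, StringTie 1.3.4d, DESeq2, Trimmomatic and bcl2fastq 2.20.0, with the build mm10, and which of them made the table is not stated. All 12 value columns were used, and the genotype and diet in a column's header gave its group. Gene IDs were matched to symbols for 30196 of 30268 genes.

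Values were taken as log2(FPKM + 1). Genes with at least 1 FPKM in 3 or more libraries were kept, which left 14340. The fit used limma 3.58.1 in R 4.3.3 with 4 group means, a mean-variance trend and 8 residual degrees of freedom. Benjamini-Hochberg adjustment ran over all tested genes of a comparison. Adding 1 FPKM shrinks the changes of low genes. An edgeR test had been planned only for a table of counts and was not used. The script was tested on simulated data with 200 changed genes. Replicates are separate biological samples per the series' design text.

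Values are given library by library for genes past the threshold in a genotype or interaction comparison, for the 3 highest and 3 lowest diet changes in WT, and for the most abundant gene of each role. The seed search, and the library values of Abcg1, were added after values had been seen. The genes, the lists and the tests were chosen with earlier results of these data known. Alternatives were 2 other scalings, 2 other pseudocounts, 2 other filters, no trend, only the groups compared, leaving out each library, leaving out 3 libraries with epithelial transcripts, and, added after seeing the data, the header number as a block. No test of cell composition was made.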

Additional observations from a re-analysis of the deposited data

How the results depend on the processing

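None of the results changed direction while called, over 21 alternatives. Of the 23 genes called for diet in WT, 18 kept the call in every alternative that could test them, and of the 24 called in KO, 22 did. Genes falling in WT went from 3 to 5 under quantile normalization and under median centring, which add Acat2 and Nr1h2. All called genes went from 7279 to 4695 (WT) and from 8730 to 5765 (KO) with a mean of at least 5 FPKM, since fewer genes were tested, and to 3878 in WT without the 3 libraries with epithelial transcripts, which leaves 1 WT_NCD library, assumed to vary like the other groups.

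For KO against WT on NCD the 7 called genes became 14 with no filter, 11 with only the groups compared and 4 without the 3 libraries. On HFD the 2 lower cholesterol genes became 1 with no filter, 0 with only the groups compared and 0 without the 3 libraries, and 1 was higher (Abcg1) with only the groups compared. All called genes there went from 115 to 232 with a mean of at least 5 FPKM, 24 with only the groups compared and 25 without the 3 libraries. The interaction's 39 became 4 (quantile), 13 (median centring), 24 (no filter) and 17 (without the 3 libraries). The cause was not tested.

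Leaving out 1 library at a time gave 16 to 21 higher and 3 to 4 lower cholesterol genes in WT, 17 to 19 and 5 in KO, 0 to 2 higher and 0 to 3 lower for genotype on HFD, and 0 for genotype on NCD and for the interaction. Over all genes the ranges were 5849 to 7652, 7779 to 8756, 17 to 953 on HFD (953 without WT_HFD 4, 273 without KO_HFD 5, 17 without WT_HFD 1), 6 to 15 on NCD and 0 to 168 for the interaction (168 without KO_NCD 2). Scaling moved the share of higher calls on HFD from 74.8% to 59.3% and 59.6%, and that of the interaction from 97.4% to 75% and 84.6%. The headers' numbers are not the replicate numbers of the sample titles, and no label says that an equal number marks a shared litter, batch or day. In WT both diets hold 1, 2 and 4. Deviations of same-numbered libraries from their group means correlated at 0.31 for 1, 0.364 for 2 and 0.009 for 4. Libraries of unlike number gave -0.371 to 0.022. These values do not settle whether equal numbers mark pairs. Because no label gives a pairing, the numbers were not taken to pair the samples in the main fit. As a replicate block, added after seeing the data, they gave 20 higher and 4 lower cholesterol genes and 7106 called genes in WT (20, 4 and 7527 over the same libraries without it). For genotype on NCD, over the 2 shared numbers, 0 cholesterol genes and 0 of all genes were called with or without the block. KO on NCD and KO on HFD share 1 number, and the HFD groups share 0. Depth is unknown, so no counting error can be given.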

Other observations

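Within the HFD groups, cholesterol genes were often at an extreme in the library with the highest macrophage sum, WT_HFD 4 among WT and KO_HFD 8 among KO. Of the 32 genes, 14 were highest in both of these libraries and 13 were lowest in both, or 43.8% and 40.6%, against 27.1% and 26.1% of the 14340 tested genes. Among the 18 synthesis enzymes 10 were highest there (Mvd, Idi1, Fdps, Sqle, Lss, Cyp51, Msmo1, Hsd17b7, Ebp and Dhcr7) and 5 were lowest (Acat2, Hmgcs1, Mvk, Pmvk and Nsdhl). Soat1, Npc1, Stard4 and Srebf2 were also highest in both. Insig1, Insig2, Scap, Mylip, Abca1, Apoe, Nr1h2 and Nr1h3 were lowest in both. The same libraries had the lowest adipocyte sums of their groups, at 11422 and 6460 FPKM. This order was seen in the data and rests on 1 library in each group, and it was not tested. Some gaps behind it were small. Mvk was at 14.6 FPKM in WT_HFD 4 and 14.7 in WT_HFD 2, and Dhcr7 at 23.0 and 22.7. Others were larger, such as Soat1 at 31.0 FPKM in WT_HFD 4 and 19.1 in WT_HFD 1.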
